A study of Schizosaccharomyces pombe with 16 samples.

Results

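Wilmar-P is an *S. pombe* isolate that makes bioethanol from molasses at industrial scale, and Wilmar-A is its wild ancestor. Gene expression in the production isolate was compared with that of its ancestor in rich medium with 3% glucose. The comparison rests on 4 of the 16 RNA-seq libraries of the series, namely replicates 1 and 2 of Wilmar-P in glucose and replicates 1 and 2 of Wilmar-A in glucose, chosen by isolate and medium. Both isolates carry the h90 mating type, were grown for 4 h in YES 3% glucose at 32°, washed in water and returned to fresh YES 3% glucose for a further 4 h. Each isolate is a single strain, and the labels do not say whether replicates came from separate cultures, so the p-values measure only a spread between libraries. That spread was estimated over all 16 libraries of the series together, with 5 residual degrees of freedom, and not from the 4 glucose libraries alone. Ribosome-depleted total RNA was sequenced, and the 4 libraries held between 13858202 and 17372238 counts on genes. The other libraries of the fit are Wilmar-P and Wilmar-A in glucose-deficient medium (3% glycerol with 0.1% glucose) and in glucose-starved medium (3% glycerol), and Wilmar-P and laboratory *S. pombe* (972h-) on molasses.

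Replicate 1 of Wilmar-P in glucose was prepared as an unstranded library and the other 3 were labelled stranded. Long non-coding RNAs (lncRNAs) took 8.34% of the counts in Wilmar-P replicate 1 and 1.35% in Wilmar-P replicate 2, against 8.65% in Wilmar-A replicate 1 and 1.55% in Wilmar-A replicate 2. Wilmar-A replicate 1 thus had the lncRNA share of an unstranded library, in contrast to its label, while all libraries other than replicate 1 in glucose and in glucose-deficient medium lay between 1.14% and 2.2%. The isolates were therefore compared within same-numbered replicates, pair 1 being the unstranded-like libraries and pair 2 the stranded ones, and a difference is given for each pair on the log2 scale as Wilmar-P minus Wilmar-A.

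Fission yeast meets heat, oxidants and salt with a shared set of core environmental stress genes, which are switched on largely through the MAP kinase Sty1 and the transcription factor Atf1. Heat shock genes are in addition driven by Hsf1, and genes for peroxide defence and drug efflux by the AP-1-like factor Pap1. The repeats that flank the centromeres and the ends of chromosomes I and II are packed into heterochromatin, which in *S. pombe* is built through H3K9 methylation by Clr4 and, at centromeres, through RNA interference acting on transcripts of the repeats themselves. In cells growing on glucose the stress genes are expressed at low levels and transcripts of heterochromatic repeats are normally scarce.

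In glucose, 2 protein-coding genes rose and 10 fell in Wilmar-P relative to Wilmar-A, out of 5073 tested (0.0394% and 0.197%; edgeR quasi-likelihood test with a term for the pair, adjusted p below 0.05 and a log2 fold change beyond 1). An unadjusted p below 0.05 (edgeR) was reached by 179 of the 5073 coding genes, 158 of them lower. Such counts in the gene lists below are read against these numbers. The lists were chosen with earlier results of these data known, so counts over them are description only. Genes were also counted by a descriptive pair rule, a log2 difference beyond 0.5 in the same direction in both pairs. By this rule 21 coding genes were higher (0.414%) and a larger number, 2.07% of those tested, were lower in Wilmar-P. Whether the libraries of the isolates overlapped is stated for named genes only. The share of all coding genes without overlap was not counted, so non-overlap is a description and not support. The differences of the pairs were correlated across coding genes, with Pearson's r of 0.44 over genes, which are not independent replicates. Of the 10 coding genes that fell, the heat shock gene *hsp16*+ had the lowest fold change, but most were on none of the stress lists. Genes lower by the pair rule made up 21.7% of the stress, chaperone, peroxide, trehalose and efflux lists, against 2.07% of all coding genes. Most of these lower genes were nevertheless on none of those lists. Genes higher by the pair rule lay almost all at chromosome ends. The largest differences past the threshold were in non-coding transcripts of the centromeres. Among all 6662 genes tested, 24 fell (0.36%), of which 14 were not annotated as protein-coding and 12 of those were centromeric lncRNAs.

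**Figure D1:**
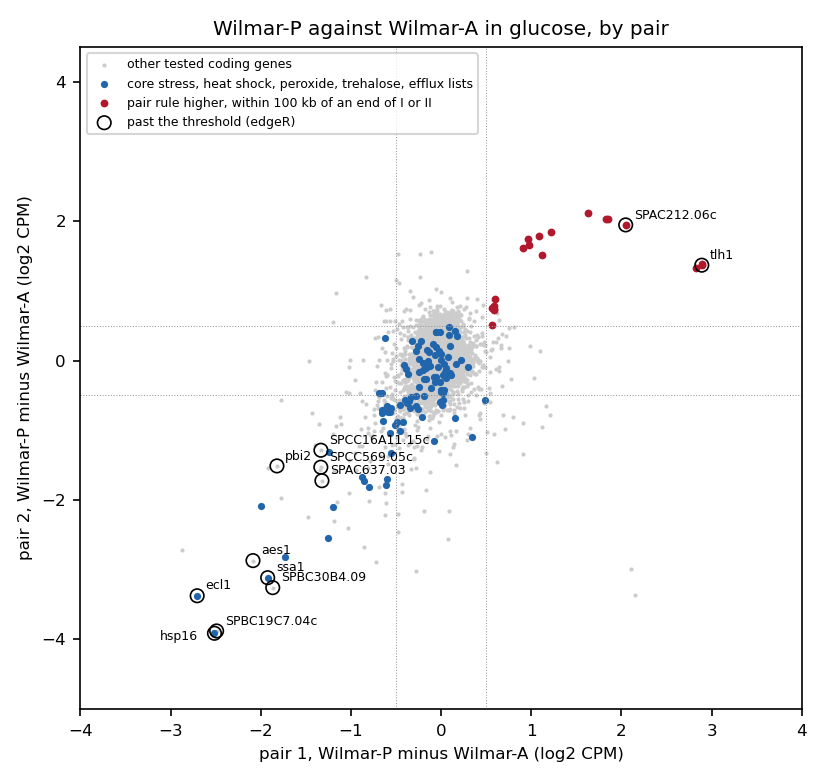
Log2 difference in TMM-scaled CPM between Wilmar-P and Wilmar-A in glucose for each coding gene, with pair 1 on the x axis and pair 2 on the y axis. Dotted lines mark 0.5 in either direction, and circles mark the 12 genes past the threshold. Genes of the stress lists are blue and extend into the lower left. Red marks only those genes near chromosome ends that were higher by the pair rule, so their place in the upper right follows from that choice. Other genes near the ends are not in red.

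Of the coding genes that fell, a heat shock gene had the lowest fold change. *hsp16*+, which encodes a small heat shock chaperone, is on the minus strand of chromosome II (2660139 to 2660992, ASM294v2). It was expressed at 17.9 and 11.8 TMM-scaled CPM, the library-scaled read count, in the Wilmar-P libraries, against 103 and 179 CPM in Wilmar-A. The groups did not overlap, and *hsp16*+ fell by 3.21 on the log2 scale (standard error 0.50, adjusted p = 0.0172, edgeR), or 9.26-fold. *ssa1*+ encodes a stress-inducible Hsp70 chaperone and lies on the minus strand of chromosome I (2295580 to 2297981). It reached 60.1 and 27.6 CPM in Wilmar-P, against 228 and 240 CPM in Wilmar-A. Again every Wilmar-P library was below every Wilmar-A library, with a log2 fold change of -2.52 and a standard error of 0.41 (edgeR adjusted p = 0.0239).

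The bases upstream of both genes are shown because they were searched for heat shock elements, inverted repeats of the unit GAA. The sequences are the 250 bases before the start of the gene in RefSeq ASM294v3, 5′ to 3′ on the strand of the gene. Capitals mark the 3-unit element in *ssa1*+ and the paired units in *hsp16*+.
ssa1: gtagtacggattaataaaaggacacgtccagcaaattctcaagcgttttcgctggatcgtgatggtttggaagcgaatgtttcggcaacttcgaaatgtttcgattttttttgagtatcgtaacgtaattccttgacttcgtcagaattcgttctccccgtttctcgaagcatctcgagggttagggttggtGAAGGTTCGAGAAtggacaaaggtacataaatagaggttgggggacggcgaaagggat
hsp16: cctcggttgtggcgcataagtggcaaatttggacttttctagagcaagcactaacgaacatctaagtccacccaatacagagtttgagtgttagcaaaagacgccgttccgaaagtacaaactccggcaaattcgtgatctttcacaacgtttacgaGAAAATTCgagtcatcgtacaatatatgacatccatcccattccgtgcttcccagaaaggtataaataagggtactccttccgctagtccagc
The 3-unit element was searched as GAANNTTCNNGAA or TTCNNGAANNTTC, which covers both of its phases on both strands. It was present upstream of 20 of 5072 tested coding genes (0.394%) and of 1 of the genes lower by the pair rule, *ssa1*+. The paired units, GAANNTTC or TTCNNGAA, which every 3-unit element contains, were upstream of 16.6% of coding genes and of 20 of the lower genes (19%). They were thus about as common among the lower genes as among all coding genes.

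Of 25 heat shock and chaperone genes tested, 2 fell, none rose, and 4 were lower by the pair rule, read against 0.197% and 2.07% of all coding genes, with a median log2 fold change of -0.09 beside 0.02 over all coding genes. The others lower by the pair rule were *hsp104*+, encoding the disaggregase, and *psi1*+, encoding an Hsp40 co-chaperone. *hsp104*+ had 32.3 and 12.3 CPM in Wilmar-P, against 48.8 and 39.9 CPM in Wilmar-A, and did not pass the test (log2 fold change -1.13, adjusted p = 0.29, edgeR). The abundant chaperones differed little. *ssa2*+, a constitutive Hsp70 gene, had pair differences of -0.18 and -0.10. *hsp90*+ had 1703 and 4111 CPM in Wilmar-P, against 1883 and 4119 CPM in Wilmar-A. The transcript of *hsf1*+ itself had pair differences of 0.11 and -0.21.

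The core stress genes were lower as a group. Of 43 tested, 2 fell, *hsp16*+ and *ecl1*+, and none rose. By the pair rule 16 of 43 were lower and none higher, read against 2.07% of all coding genes, and 32 of 43 were negative in both pairs against 27.5% of all coding genes. The median log2 fold change was -0.51, with -0.39 in pair 1 and -0.68 in pair 2. It was -0.25 when the pair term was replaced by the library type as labelled, a fit in which the median was 0.04 for the heat shock list, -0.07 for peroxide defence, -0.04 for the TCA cycle and respiratory chain, 0.29 for ribosomal proteins and -0.23 for hexose transporters. *ecl1*+, which extends chronological lifespan when overexpressed, lies on chromosome III (2354974 to 2358570) and had 17.5 and 18.7 CPM in Wilmar-P, against 115 and 195 CPM in Wilmar-A. The replicates of Wilmar-P were close to each other and far below both of Wilmar-A, and *ecl1*+ fell by 3.05 (standard error 0.27, adjusted p = 0.000222, edgeR).

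The other core stress genes with large differences did not pass the test. *zym1*+, a metallothionein, had 14.7 and 13.6 CPM in Wilmar-P, against 48.9 and 96.6 CPM in Wilmar-A (log2 fold change -2.28, adjusted p = 0.0946, edgeR). *cta3*+, a cation-transporting ATPase, had 14.2 and 6.29 CPM in Wilmar-P, against 34.1 and 37.4 CPM in Wilmar-A. *rsv2*+, a zinc finger transcription factor of stress and sporulation genes, had 45.7 and 32.4 CPM in Wilmar-P, against 104.6 and 140 CPM in Wilmar-A. In all 3 genes each Wilmar-P library was below each Wilmar-A library. *ish1*+, a nuclear envelope protein induced in stationary phase, had 49.9 and 37.9 CPM in Wilmar-P, against 90.1 and 126 CPM in Wilmar-A (log2 fold change -1.29, adjusted p = 0.0706, edgeR). *tps1*+, which makes trehalose-6-phosphate, had pair differences of -0.59 and -0.73, and the neutral trehalase gene *ntp1*+ of -0.45 and -1.01. The trehalose genes had a median log2 fold change of -0.49, and 3 of 5 were negative in both pairs, against 27.5% of all coding genes. None of them fell (2 of 5 with an unadjusted p below 0.05 by edgeR, 0 called by DESeq2).

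Of 20 genes of the Sty1 pathway none passed the test (edgeR, 1 with an unadjusted p below 0.05; 0 by DESeq2) and the median was -0.10. *sty1*+ itself had 300 and 388 CPM in Wilmar-P, against 300 and 414 CPM in Wilmar-A, and *wis1*+, its MAP kinase kinase, had pair differences of -0.06 and -0.06. *atf1*+ was the lowest of them, with 31.2 and 55.8 CPM in Wilmar-P, against 49.4 and 76.7 CPM in Wilmar-A, a log2 fold change of -0.56 that did not pass (adjusted p = 1, edgeR). The isolates overlapped for *atf1*+, which was lower in Wilmar-P within each pair. Atf1 binds the core TGACGT, read as ACGTCA on the other strand. This core was upstream of 5.54% of coding genes and of 12 of the genes lower by the pair rule (11.4%). The 12 include *ctt1*+, *rsv2*+ and *ish1*+, and also the hexose transporter gene *ght2*+. None of the 10 coding genes that fell had the core.

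Of 30 peroxide defence genes none passed the test (edgeR, 9 with an unadjusted p below 0.05, all lower; DESeq2 called 1), 7 were lower and none higher by the pair rule, read against 2.07% of all coding genes lower, and the median log2 fold change was -0.25. Of these 7, *srx1*+, *gst2*+ and *ctt1*+ are also on the core stress list and *bfr1*+ on the efflux list. *srx1*+, encoding sulfiredoxin, had 19.4 and 28.4 CPM in Wilmar-P, against 46.0 and 70.4 CPM in Wilmar-A. *ctt1*+, encoding catalase, had 30.6 and 17.0 CPM in Wilmar-P, against 46.9 and 59.0 CPM in Wilmar-A. The glutathione S-transferase gene *gst2*+ had 220 and 102 CPM in Wilmar-P, against 403 and 327 CPM in Wilmar-A. In each of them the isolates did not overlap. *obr1*+, a quinone reductase gene and a well-known target of Pap1, had 1628 and 1683 CPM in Wilmar-P, against 2552 and 3074 CPM in Wilmar-A, and was the most abundant of the genes past the pair rule.

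Among efflux genes *caf5*+ and *bfr1*+ were lower by the pair rule, and the list as a whole was mixed. *caf5*+ encodes a transporter of the major facilitator family that gives resistance to caffeine. It had 35.4 and 47.3 CPM in Wilmar-P, against 141 and 201 CPM in Wilmar-A, or -2.00 in pair 1 and -2.09 in pair 2 (adjusted p = 0.107, edgeR). *bfr1*+, the brefeldin A efflux pump of the ABC family, had 514 and 482 CPM in Wilmar-P, against 811 and 813 CPM in Wilmar-A, or -0.66 and -0.76. Of 18 efflux genes tested these 2 were lower by the pair rule, read against 2.07% of all coding genes. In both pairs 8 were negative, against 27.5% of all coding genes, and 1 was positive, against 30.6%. The other 9 had opposite signs, as had 2126 of 5073 coding genes. The median was -0.02 in pair 1 and -0.24 in pair 2, and none passed the test (edgeR, 4 with an unadjusted p below 0.05; DESeq2 called 1). The gene *pap1*+ itself had 168 and 158 CPM in Wilmar-P, against 168 and 216 CPM in Wilmar-A.

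Upstream sequences of *caf5*+ and *obr1*+ are shown with the AP-1-like sites in capitals, as these genes are among those that Pap1 is known to control. The windows are again the 250 bases before the RefSeq gene start.
caf5: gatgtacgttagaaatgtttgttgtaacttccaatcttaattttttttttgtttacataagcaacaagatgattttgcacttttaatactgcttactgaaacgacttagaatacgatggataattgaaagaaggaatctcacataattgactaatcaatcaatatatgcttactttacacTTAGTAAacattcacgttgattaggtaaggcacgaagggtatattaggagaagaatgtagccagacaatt
obr1: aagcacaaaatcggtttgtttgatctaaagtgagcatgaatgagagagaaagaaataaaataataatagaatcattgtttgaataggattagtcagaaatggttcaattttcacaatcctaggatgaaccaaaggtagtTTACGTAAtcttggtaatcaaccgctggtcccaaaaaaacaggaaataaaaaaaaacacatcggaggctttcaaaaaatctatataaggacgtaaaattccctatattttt
The sites searched were TTAGTAA and its reverse TTACTAA, and the palindrome TTACGTAA. At least 1 of them was upstream of 11.1% of coding genes and of 21 of the genes lower by the pair rule (20.0%), among them *caf5*+, *bfr1*+, *srx1*+, *gst2*+, *obr1*+ and *cta3*+. Of the 10 coding genes that fell, 1 had such a site, SPBC30B4.09. The match is to letters only, and binding was not measured in these libraries.

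**Figure D2:**
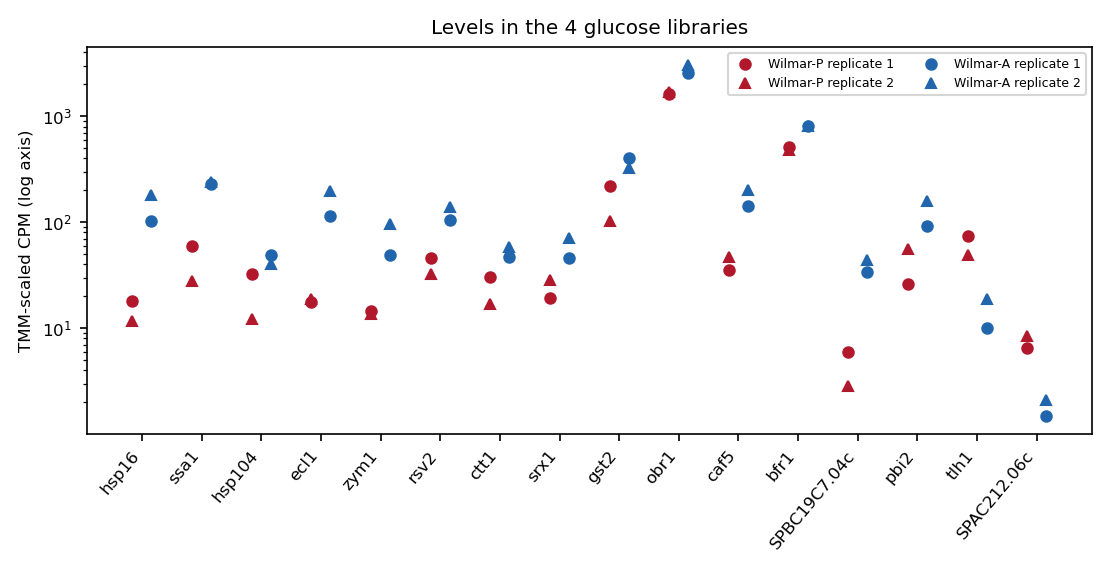
Level of 16 genes in each of the 4 glucose libraries, as TMM-scaled CPM on a log axis, with Wilmar-P in red left of Wilmar-A in blue (circles replicate 1, triangles replicate 2). For *hsp16*+ the Wilmar-P libraries are at 17.9 and 11.8 CPM, below 103 and 179 CPM in Wilmar-A, and *tlh1*+ and SPAC212.06c are the only genes shown that are higher in Wilmar-P.

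The remaining genes that fell are on none of the stress lists. SPBC19C7.04c, an uncharacterized conserved protein on chromosome II (2825251 to 2826700), had 5.95 and 2.86 CPM in Wilmar-P, against 34.0 and 43.9 CPM in Wilmar-A (edgeR adjusted p = 0.00294, with a log2 fold change of -3.16 and a standard error of 0.37). *aes1*+, annotated as a phenazine biosynthesis family protein, had 3.64 and 1.14 CPM in Wilmar-P, against 15.9 and 9.20 CPM in Wilmar-A (adjusted p = 0.0107, edgeR). The proteinase B inhibitor gene *pbi2*+ had 25.9 and 55.7 CPM in Wilmar-P, against 91.8 and 159 CPM in Wilmar-A (adjusted p = 0.0119, edgeR). In all 3 genes the isolates did not overlap. SPCC569.05c, a spermidine family transporter, fell by 1.44 with the smallest standard error of the genes that fell (0.17, adjusted p = 0.00307, edgeR), at 27.8 and 33.9 CPM in Wilmar-P, against 70.2 and 98.1 CPM in Wilmar-A. The uncharacterized genes SPAC637.03 and SPCC16A11.15c fell by 1.53 and by 1.32 (adjusted p = 0.0182 and 0.0164, edgeR).

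SPBC30B4.09, also uncharacterized, had 14.2 and 9.35 CPM in Wilmar-P, against 52.3 and 90.5 CPM in Wilmar-A (log2 fold change -2.56, adjusted p = 0.00532, edgeR). It shares its position on chromosome II (1296672 to 1297662) with the non-coding gene SPNCRNA.570, which fell by 2.52, and with SPBC3D6.16 on the opposite strand. A read was counted for every gene it overlapped, so SPBC30B4.09 and SPNCRNA.570 cannot be told apart. Below the threshold, *lsd90*+ had 20.9 and 31.9 CPM in Wilmar-P, against 154 and 210 CPM in Wilmar-A (log2 fold change -2.80, adjusted p = 0.0646, edgeR), and the D-amino acid oxidase gene *dao1*+ had 41.7 and 38.9 CPM in Wilmar-P, against 75.2 and 126 CPM in Wilmar-A (adjusted p = 0.0683, edgeR). Of the genes lower by the pair rule, 23 were on the stress, chaperone, peroxide, trehalose or efflux lists, which is 21.7% of the tested genes of these lists, read against 2.07% of all coding genes.

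The centromeric lncRNAs showed the largest differences between the isolates. RefSeq names 22 genes as centromeric lncRNAs, and this list was taken up after their values had been seen. Of these, 14 were expressed well enough to be tested, 12 fell in Wilmar-P and none rose, with a median log2 fold change of -3.63, beside 0.36% of all genes tested that fell. SPNCRNA.231 at centromere I (chromosome I, 3761023 to 3762114, plus strand) had 5.95 and 5.60 CPM in Wilmar-P, against 270.5 and 302.1 CPM in Wilmar-A, from 129 and 88 counts in Wilmar-P and 5838 and 4796 counts in Wilmar-A. This 49.4-fold difference was the largest of all genes past the threshold (edgeR adjusted p = 2.04e-05, with a log2 fold change of -5.63 and a standard error of 0.38). SPNCRNA.232 had 93 and 63 counts in Wilmar-P, against 3262 and 1741 counts in Wilmar-A (log2 fold change -4.96, adjusted p = 5.62e-06, edgeR). On centromere II, SPNCRNA.371 had 47 and 32 counts in Wilmar-P, against 1199 and 933 counts in Wilmar-A (log2 fold change -4.76, adjusted p = 5.62e-06, edgeR).

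All 4 tested lncRNAs of centromere I (3753730 to 3787136) and 8 of 9 of centromere II (1602773 to 1641543) fell. Summed over the genes of centromere I, Wilmar-P had 377 and 300 counts, against 11197 and 8550 counts in Wilmar-A. The sums on centromere II were 855 and 453 counts in Wilmar-P, against 15819 and 4271 counts in Wilmar-A. The 2 lncRNAs annotated on centromere III had 20 and 25 counts in Wilmar-P, against 14 and 9 counts in Wilmar-A, so no fall was seen at these genes. Over all 22 genes the summed level was 72.1 and 56.1 CPM of the library total in Wilmar-P, against 1590 and 899 CPM in Wilmar-A. For some genes the pairs differed in size, SPNCRNA.362 having 299 and 70 counts in Wilmar-P, against 5896 and 264 counts in Wilmar-A.

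A stretch of 100 bases from SPNCRNA.231 shows why single centromeric genes cannot be separated. It was read from RefSeq ASM294v3, chosen as the stretch of the gene with the most exact copies, and is given on the strand of the gene.
SPNCRNA.231: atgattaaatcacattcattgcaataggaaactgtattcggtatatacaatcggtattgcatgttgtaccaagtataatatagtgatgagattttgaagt
This stretch occurs 11 times in the genome, 2 times on chromosome I, 2 times on chromosome II and 7 times on chromosome III. Of the 50-base stretches of SPNCRNA.231, 82.4% occur elsewhere in the genome, and the 12 lncRNAs that fell ranged from 70.0% to 100% by this measure. The counts therefore show transcripts of a repeat family, and the counting parameters that the study lists include no option for reads with several placements. Sums over the centromeric genes may hold a read more than once. The number of repeat copies in the isolates was not tested.

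The same contrast was found in media that share no library with glucose. In glucose-deficient medium the centromeric lncRNAs reached 31.4 and 13.3 CPM in Wilmar-P, against 1665 and 921 CPM in Wilmar-A. In glucose-starved medium they reached 27.9 and 22.7 CPM in Wilmar-P, against 1935 and 2238 CPM in Wilmar-A. On molasses, where Wilmar-A was not measured, they reached 27.6 and 29.6 CPM in Wilmar-P, against 9.22 and 15.2 CPM in laboratory *S. pombe*. High levels were thus found in each of the Wilmar-A libraries and in no library of Wilmar-P or laboratory *S. pombe*. Between the isolates, 12 of 14 fell in glucose-deficient and 13 of 14 in glucose-starved medium (edgeR). Among all 5073 tested coding genes, 7 fell in glucose-deficient and 17 in glucose-starved medium.

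Transcripts of the genes that build heterochromatin did not differ to a comparable extent. Of 27 genes for Clr4 and its complex, Swi6, the RNA interference machinery and related factors, listed after the centromeric values had been seen, none passed the test (edgeR, 0 with an unadjusted p below 0.05; 0 by DESeq2). Their log2 fold changes ranged from -0.21 to 0.36 with a median of 0.07. *clr4*+, the H3K9 methyltransferase, had 19.5 and 16.7 CPM in Wilmar-P, against 19.9 and 21.7 CPM in Wilmar-A. The Dicer gene *dcr1*+ had 43.1 and 37.6 CPM in Wilmar-P, against 41.9 and 45.2 CPM in Wilmar-A. The Argonaute gene *ago1*+ had 47.9 and 55.6 CPM in Wilmar-P, against 46.1 and 62.9 CPM in Wilmar-A. The Swi6 gene had pair differences of -0.04 and 0.39. Coding changes and protein levels were not analysed here. The 13 Tf2 retrotransposon genes, another repeat family, were positive in both pairs, against 30.6% of all coding genes, with a median log2 fold change of 0.05. Their log2 fold changes all lay between 0.047 and 0.059. Such copies can share reads (*Tf2-11*+ is 90.9% repeated), so these genes are not independent of one another.

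**Figure D3:**
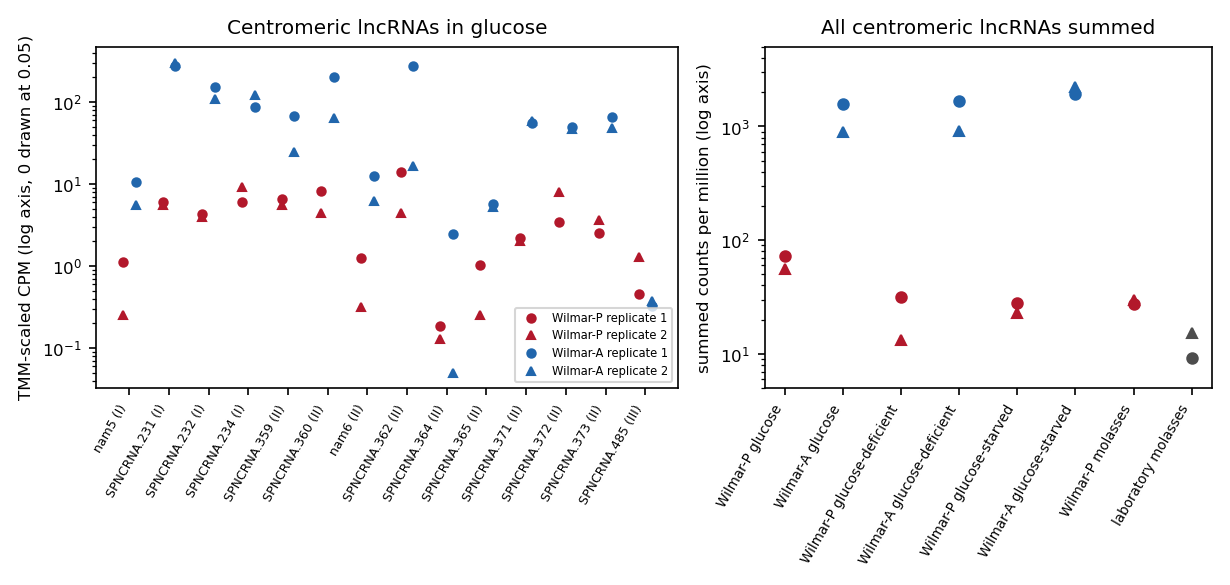
Left, TMM-scaled CPM (log axis) of the 14 tested centromeric lncRNAs in the glucose libraries, ordered along chromosomes I, II and III, with Wilmar-P in red left of Wilmar-A in blue and 0 drawn at 0.05. Right, summed CPM (log axis) of all 22 in every library of the series (circles replicate 1, triangles replicate 2), with Wilmar-A between 899 and 2238 and all Wilmar-P and laboratory libraries at or below 72.1.

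The genes higher in Wilmar-P by the pair rule were mostly those nearest the ends of chromosomes I and II. Of the 21 coding genes higher by the pair rule, 19 lie within 100 kb of an end of these chromosomes, where 109 of the 5073 tested coding genes are found. The share was smaller further from the end. Within 25 kb of an end 13 of 25 tested genes were higher, from 25 to 50 kb 5 of 32, and from 50 to 100 kb 1 of 52, read against 0.414% of all coding genes. Median log2 fold changes in these bins were 0.74, 0.11 and -0.03. Neighbouring genes formed 2 runs, 5 genes at the left end of chromosome I (1 to 23050, *tlh1*+ to SPAC212.04c) and 4 genes at its right end (5565881 to 5579133, *ftm4*+ to SPAC750.08c).

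The genes that rose were *tlh1*+, a telomere-linked RecQ-type DNA helicase, and SPAC212.06c, a helicase-like open reading frame of the same run. *tlh1*+ is the outermost gene of the left end of chromosome I (1 to 5662, minus strand) and had 74.8 and 48.7 CPM in Wilmar-P, against 9.96 and 18.8 CPM in Wilmar-A (edgeR adjusted p = 0.0496, with a log2 fold change of 2.14 and a standard error of 0.39). SPAC212.06c (18042 to 18974) had 6.54 and 8.39 CPM in Wilmar-P, against 1.48 and 2.08 CPM in Wilmar-A (edgeR adjusted p = 0.0193, with a log2 fold change of 2.07 and a standard error of 0.33). For both genes each Wilmar-P library was above each Wilmar-A library.

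The copy of *tlh1*+ at the right end of chromosome II, *tlh2*+, had 82.1 and 56.4 CPM in Wilmar-P, against 10.9 and 21.5 CPM in Wilmar-A (log2 fold change 2.15, adjusted p = 0.06, edgeR). SPAC750.08c, annotated as a NAD-dependent malic enzyme, is the last of the run at the right end of chromosome I and had 70.7 and 76.6 CPM in Wilmar-P, against 9.87 and 30.4 CPM in Wilmar-A (adjusted p = 0.135, edgeR). The *ftm* family of transmembrane proteins had smaller differences, *ftm4*+ having 62.7 and 53.7 CPM in Wilmar-P, against 41.2 and 29.0 CPM in Wilmar-A. These values are not independent of one another, since 17 of the 21 higher genes are more than 50% repeated, and none of the genes lower by the pair rule is. A stretch of *tlh1*+ chosen in the same way illustrates this.
tlh1: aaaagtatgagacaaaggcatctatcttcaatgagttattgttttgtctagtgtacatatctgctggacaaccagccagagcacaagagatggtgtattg
These 100 bases occur 3 times in RefSeq ASM294v3, 1 time on chromosome I and 2 times on chromosome II. Reads from such copies can be assigned to any of them, and *tlh1*+ and *tlh2*+ had nearly the same level in every library. In replicate 2, SPAC212.12 and SPAC750.07c, at opposite ends of chromosome I, each had 2.99 CPM in Wilmar-P and 0.63 CPM in Wilmar-A. The runs and the counts of genes near the ends may therefore hold the same reads more than once, which was not tested.

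The rest of the chromosome ends did not follow. At the left end of chromosome I, 8 of 30 tested genes were higher by the pair rule and none lower, at its right end 5 were higher and 3 lower of 30, at the left end of chromosome II 2 were higher and 2 lower of 25, and at its right end 4 were higher and 1 lower of 24. The genes higher by the rule with no more than 50% repeated sequence were *isp3*+, *gdt1*+, SPAC11D3.02c and *aar2*+. *isp3*+, a spore wall gene, had 18.9 and 25.4 CPM in Wilmar-P, against 12.8 and 17.9 CPM in Wilmar-A. *aar2*+, a splicing factor of the U5 snRNP in the middle of chromosome I, had 413 and 71.2 CPM in Wilmar-P, against 264 and 47.6 CPM in Wilmar-A, a shift between pairs larger than that between isolates. Copy number at the ends was not tested.

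**Figure D4:**
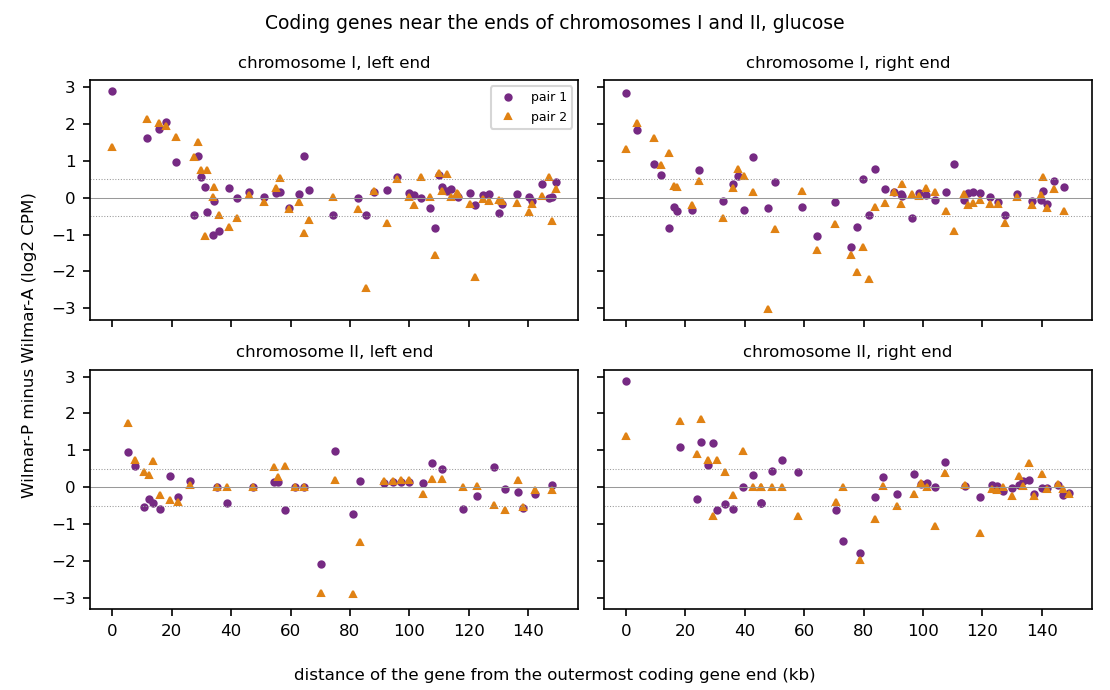
Log2 difference between Wilmar-P and Wilmar-A in glucose for coding genes within 150 kb of the ends of chromosomes I and II, against the distance in kb from the outermost coding gene (circles pair 1, triangles pair 2). Higher values gather nearest the ends, where 13 of the 25 genes within 25 kb pass the pair rule.

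Genes of energy metabolism and growth shifted by small amounts. Of 47 nuclear genes of the TCA cycle and respiratory chain, 30 were negative in both pairs against 27.5% of all coding genes, and the median log2 fold change was -0.24, but none was lower by the pair rule and none passed the test (edgeR, 3 with an unadjusted p below 0.05; 0 by DESeq2). The lowest was *qcr1*+, a core subunit of complex III, with 504 and 491 CPM in Wilmar-P, against 687 and 870 CPM in Wilmar-A. *atp2*+, the catalytic subunit of ATP synthase, had 1060 and 1295 CPM in Wilmar-P, against 1431 and 2002 CPM in Wilmar-A. Succinate dehydrogenase did not follow, the flavoprotein gene *sdh1*+ having pair differences of 0.21 and -0.21.

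Ribosomal protein genes differed the other way. Of 139 tested, 109 were positive in both pairs against 30.6% of all coding genes, with a median log2 fold change of 0.12 and none past the pair rule or the test (edgeR, 2 with an unadjusted p below 0.05; 0 by DESeq2). Medians were also above 0 for 63 genes of RNA polymerase I and the nucleolus (0.11, 32 positive in both pairs) and for 21 translation factors (0.06, 11 positive in both pairs).

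**Figure D5:**
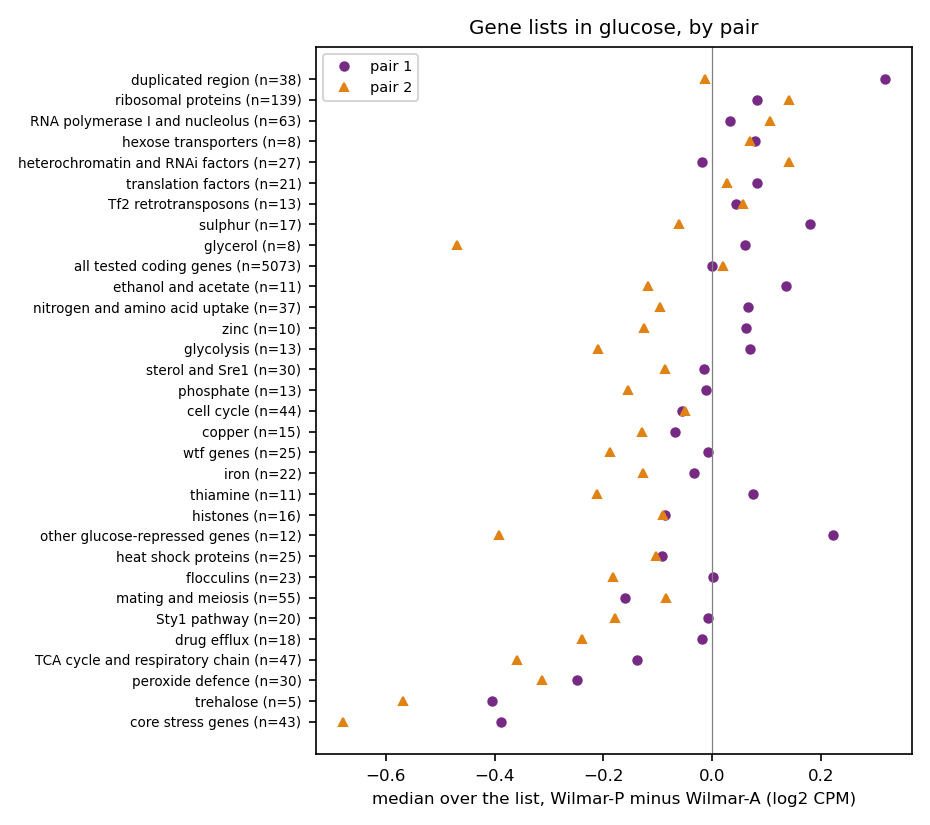
Median log2 difference between Wilmar-P and Wilmar-A over each gene list in glucose, for pair 1 (circles) and pair 2 (triangles), with the number of tested genes. Core stress genes (-0.39 and -0.68), trehalose genes and peroxide genes lie to the left in both pairs, and ribosomal proteins lie to the right in both (0.08 and 0.14).

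Hexose transporters split into those higher and those lower. Of 8 tested, 4 were positive in both pairs (*ght1*+, *ght5*+, *ght6*+ and *ght8*+), against 30.6% of all coding genes. Negative in both were 3, against 27.5%, while *ght7*+ had at most 1 count in a glucose library. *ght5*+, the main high-affinity glucose transporter, had pair differences of 0.63 and 0.32, and *ght8*+ had 1063 and 576 CPM in Wilmar-P, against 759 and 522 CPM in Wilmar-A. On chromosome III, *ght6*+ and *ght5*+ lie in the segment duplicated in Wilmar-P that is described below. *ght8*+ and *ght1*+ lie to the right of that segment (226336 to 230546 and 232288 to 235289). *ght2*+, a glucose and fructose symporter, had 149 and 215 CPM in Wilmar-P, against 218 and 309 CPM in Wilmar-A and was the only one past the pair rule. No transporter passed the test (edgeR, 0 with an unadjusted p below 0.05; 0 by DESeq2). The list of other glucose-repressed genes, which also holds the regulators *scr1*+, *rst2*+, *tup11*+ and *tup12*+, differed between the pairs. Of 12 tested, 10 had opposite signs, as had 2126 of 5073 coding genes, with a median of 0.22 in pair 1 and -0.39 in pair 2. The invertase gene *inv1*+ had 85.2 and 11.9 CPM in Wilmar-P, against 45.5 and 30.4 CPM in Wilmar-A, and the dihydroxyacetone kinase gene *dak2*+ had 92.8 and 10.4 CPM in Wilmar-P, against 42.5 and 20.2 CPM in Wilmar-A. Neither gene has a direction in these data.

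The other 16 lists covered glycolysis, ethanol, glycerol, mating, metals, phosphate, thiamine, nitrogen, sulphur, sterols, flocculins, histones, the cell cycle and *wtf* genes. Their medians lay between -0.10 and 0.03. Read against 27.5% of all coding genes, 11 of 16 histone genes, 27 of 55 mating and meiosis genes and 20 of 44 cell cycle genes were negative in both pairs. No list had more than 3 members past the pair rule, and none of their members passed the test (edgeR, 16 with an unadjusted p below 0.05; DESeq2 called 2, both *zym1*+, which is on the copper and zinc lists). The copper pump gene *ccc2*+ had pair differences of -0.07 and -0.04 and the repressor gene *scr1*+ of -0.30 and -0.25. Of 7 mitochondrially encoded genes tested the median log2 fold change was -1.03, at levels of at most 3.4 CPM in any glucose library.

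The segment of chromosome III that is duplicated in Wilmar-P holds 38 coding genes (120540 to 217099). All 38 were higher in Wilmar-P in pair 1, where 2531 of 5073 coding genes were, with a median log2 difference of 0.32 or 1.25-fold. In pair 2, where 2697 of 5073 coding genes were higher, 19 of 38 were, with a median of -0.01. The 38 genes on its left (28298 to 119002) had medians of -0.05 and -0.01, and the 38 on its right (221149 to 330732) had medians of 0.04 and -0.05, with 16 and 25 genes higher in pair 1. In glucose the step at the borders was therefore seen in pair 1 and not in pair 2. In glucose-deficient medium the median was 0.45, against -0.10 on the left and 0.05 on the right (pair medians 0.39 and 0.54). There 32 of 38 genes were positive in both pairs, read against 1815 of 5073 coding genes. In glucose-starved medium the median was 0.55, against 0.10 on the left and 0.03 on the right (pair medians -0.02 and 1.05). There 17 of 38 were positive in both pairs, read against 1819 of 5073 coding genes. In pair 1 the differences within the segment ranged from 0.04 (*ark1*+) to 0.81 (*pcm1*+), and none of its genes passed the test (edgeR, 0 with an unadjusted p below 0.05; 0 by DESeq2).

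The glucose differences were then read in the other media, whose libraries are separate. Of the genes lower by the pair rule in glucose, 61 (58.1%) were also lower by it in glucose-deficient medium, where 2.6% of coding genes were, and 28 (26.7%) in glucose-starved medium, where 2.37% were. Of the 21 higher genes, 14 were higher in glucose-deficient medium (0.867% of coding genes) and 13 in glucose-starved medium (1.4%). Over the lower genes the median was -1.05 in glucose, -0.85 in glucose-deficient and -0.32 in glucose-starved medium, and over the 21 higher genes it was 1.37, 0.97 and 1.20 in the same order of media, on the log2 scale. All 10 coding genes that fell in glucose were negative in both glucose-deficient pairs, read against 1498 of 5073 coding genes. In both glucose-starved pairs 7 of 10 were, read against 1263 of 5073. *hsp16*+, for one, had differences of -0.97 and -0.89 in glucose-deficient and of -1.33 and 0.96 in glucose-starved medium, while *tlh1*+ had 2.94 and 2.86 in glucose-deficient and 1.61 and 0.78 in glucose-starved medium. No coding gene passed the test for a change of the difference from glucose to glucose-deficient medium (edgeR, 24 with an unadjusted p below 0.05, 0 called by DESeq2). For the change to glucose-starved medium none passed by edgeR (152 with an unadjusted p below 0.05), while DESeq2 called 15. With 2 libraries a group this does not show that the differences were alike between media.

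The number of genes that passed depended on the model, whereas their direction did not. When only the 4 glucose libraries were fitted, 13 coding genes rose (0.259%) and 50 fell (0.994%), and those that fell included 10 core stress genes and all 10 that fell in the fit of 16 libraries. Without the term for the pair, 1 of the 12 genes passed, SPBC19C7.04c. When 1 of the 4 libraries was left out, only 1 pair informed the glucose fold change and the lone library was assumed to vary like the other groups of the fit. Then between 1 and 4 genes fell, and *ecl1*+ was past the threshold each time, with log2 fold changes from -3.39 to -2.71. Both *hsp16*+ (adjusted p = 0.067 to 0.555, edgeR) and *tlh1*+ (adjusted p = 0.0508 to 0.729, edgeR) were not, whichever library was left out, with log2 fold changes from -3.93 to -2.52 and from 1.37 to 2.91. All 12 genes kept their direction in each of these fits.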

How the data were processed

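The authors deposited a table of raw read counts per gene for 16 libraries. Adapters had been removed with Trim Galore, reads aligned to ASM294v2 with TopHat2 2.1.1, and counts made with featureCounts 1.5.2, a read counting for each gene it overlapped. Counts were analysed with edgeR 4.0.16 (R 4.3.3): filterByExpr, TMM, and quasi-likelihood F tests over 8 groups with a replicate term in each of 3 laboratory media, Benjamini-Hochberg adjusted over 6662 genes. Replicate numbers were taken as pairs, since the differences between replicates correlated between the isolates in each medium (r = 0.92, 0.94 and 0.32 over 5073 coding genes). Library type also differed between replicates. CPM are TMM-scaled, and pair differences used a prior count of 2. A floor of 3 counts was 0.173 to 0.216 CPM, which covers counting error only. DESeq2 1.42.0 was an alternative, and others concerned the pair term, strandedness, filters, scaling and single libraries. Genes named were those called, then the smallest p among genes past the pair rule, and the list members described. Members and lists were chosen with earlier results of these data known, and the centromeric and heterochromatin lists after their values were seen. Sequences and repeated shares are from RefSeq ASM294v3, which matched 6845 of 7019 genes. The authors' comparisons were not used.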

Additional observations from a re-analysis of the deposited data

Results flagged for a closer look

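For 3 centromeric lncRNAs the difference between Wilmar-P and Wilmar-A changed from glucose to glucose-starved medium, by a test of that change itself (edgeR, adjusted p = 0.0482 each). SPNCRNA.231 had a log2 fold change of -9.73 in glucose-starved medium and of -5.63 in glucose, a change of -4.10. SPNCRNA.234 had -6.25 in glucose-starved medium and -3.79 in glucose, a change of -2.46. SPNCRNA.360 had -7.14 in glucose-starved medium and -4.26 in glucose, a change of -2.88. In all 3 the isolates differed in the same direction in both media. These calls were lost without the term for the pair, with DESeq2 size factors, with a minimum of 10 counts and when any 1 glucose library was left out.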

How the results depend on the processing

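For genes higher in Wilmar-P, against 2 in the main analysis, the count was 0 without the replicate block, 0 with strandedness as labelled in place of the block, 1 with Wilmar-A replicate 1 also treated as unstranded in place of the block, 13 in the fit of the glucose libraries with the replicate block, 13 with the Wilmar libraries on laboratory media, 1 with DESeq2 size factors, 1 with a minimum of 10 counts, 1 with coding genes only, 8 with DESeq2's Wald test, 0 with repeated genes left out, and 0 to 0 when 1 library was left out. For genes lower, against 10, it was 1 without the replicate block, 1 and 5 with these forms of strandedness in its place, 50 with the glucose libraries, 28 with the Wilmar libraries, 36 with DESeq2's Wald test, and 1 to 4 when 1 library was left out. The pair rule gave 42 higher and 216 lower genes at a threshold of 0.3, 10 and 28 at a threshold of 1, and 4 higher with repeated genes left out. Centromeric lncRNAs that fell numbered 6 without the replicate block and 7 to 9 when 1 library was left out, against 12. The glucose-starved change of difference was called for 2 coding genes with the Wilmar libraries and 15 by DESeq2's Wald test, against 0. *ght6*+ was reversed without the replicate block and with strandedness as labelled (-0.45, against 0.31 in the main analysis). The cause was not tested in any of these. Leaving out repeated genes and the tests on centromeric lncRNAs and between media were chosen after seeing the data. All 12 called coding genes kept their direction in each alternative fit. With 2 libraries a group, of which 1 pair is unstranded, low counts and overlapping genes limit what can be shown.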
